A study of Mus musculus with 8 samples.

Results

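Hepatocytes divide their work along the liver lobule, and 9 genes that mark this division were followed in sorted biliary cells, 4 of them pericentral (Glul, Cyp2e1, Cyp1a2 and Oat) and 5 periportal (Cps1, Ass1, Pck1, Hal and Sds). The genes were taken by name from the 46603 rows of the gene count table, with earlier results of these data known, and all 9 were found once and passed the filter on low counts. Libraries were made from EpCAM+CD45- liver cells of 4 mice named JV602, JV621, JV624 and JV6314, with an EGFP-positive library (LLRCs, the liver label-retaining cells) and an EGFP-negative library (non-LRC cells) from each mouse. All mice were heterozygous for R26rtTA and for H2B-EGFP, received doxycycline from postnatal day 0 to day 5, and were 8 weeks old at the sort. The groups thus shared genotype, treatment and age and were separated by retained EGFP. For the study as a whole the methods give a mixed C57BL/6 and CBA background and both sexes. The sex of these 4 mice is not given in the sources used here. The rtTA activator is driven by the Rosa26 promoter and is not restricted to the biliary lineage, and hepatocytes were depleted by low-speed centrifugation and leukocytes with CD45 beads before the sort.

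Blood enters the lobule at the portal vein and leaves at the central vein, and hepatocytes change their enzymes along this path. Periportal hepatocytes turn ammonia into urea, break down amino acids and make glucose, while the last hepatocytes around the central vein capture the remaining ammonia as glutamine and hold much of the cytochrome P450 activity. Pericentral genes depend on Wnt signals from the endothelium of the central vein. Cholangiocytes, the cells that line the bile ducts, are not known for either programme.

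Total counts ranged from 7860021 to 9851819 in LLRCs and from 4670132 to 8056103 in non-LRC cells, where 3 counts correspond to 0.291 to 0.626 CPM (counts per library size, with sizes adjusted by TMM). The biliary markers Epcam and Krt19 were read at 583.5 and 116 CPM in LLRCs against 551 and 134 CPM in non-LRC cells, and the hepatocyte product Alb was read at 2336 and 2319 CPM. Of 13605 genes tested, 0 (0%) had an adjusted p below 0.05 in edgeR's quasi-likelihood test (smallest 0.0809), 702 had an unadjusted p below 0.05, and DESeq2 called 221. The non-LRC library of JV624 stood apart in hepatocyte transcripts, and 2371 genes (17.4%) had their highest level of all 8 libraries there. The members' fold changes are therefore also given without it.

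All 9 members had a lower mean level in LLRCs than in non-LRC cells, and none passed the adjusted threshold of edgeR's quasi-likelihood test. The members' median log2 fold change (LLRC over non-LRC) was -2.13, against -0.01 over all genes tested. An unadjusted p below 0.05 with a lower level in LLRCs was found for 7 of 9 members and for 3.56% of all genes. The DESeq2 Wald test called 2 members, Glul and Cyp2e1, where it called 1.29% of all genes as lower. The LLRC library was the lower of the pair in every mouse for 5 of 9 members and for 5.73% of all genes. These bulk libraries can hold several cell types, and fewer cells of a type cannot be told apart from less RNA per cell.

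**Figure D1:**
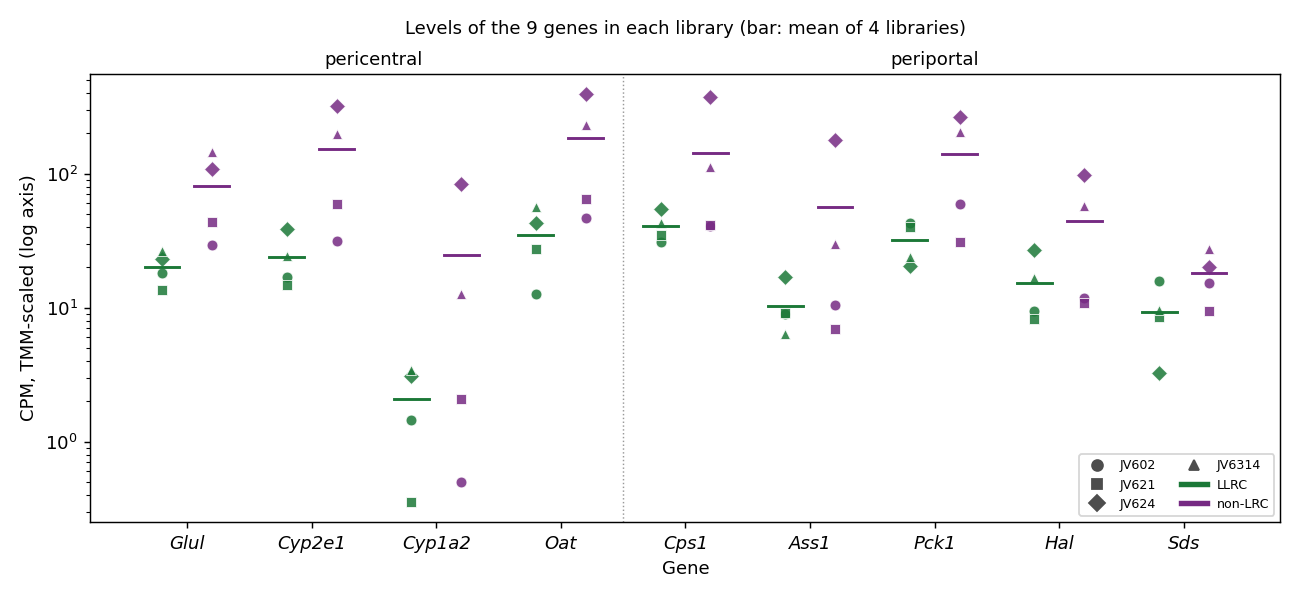
TMM-scaled CPM on a log axis for the 9 members in each of the 8 libraries, with the LLRC library on the left and the non-LRC library on the right of each gene, a marker shape for each mouse and a bar at the mean of 4 libraries. Glul is the member whose groups do not overlap, and the non-LRC libraries of JV624 and JV6314 stand at the top of most columns.

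Among the pericentral members, Glul encodes glutamine synthetase, which joins ammonia to glutamate in the hepatocytes that border the central vein (chr1:153899944-153909723 of GRCm38, protein-coding, + strand). Glul was read at 18.0, 13.5, 23.1 and 26.3 CPM in LLRCs from JV602, JV621, JV624 and JV6314, and at 29.2, 43.6, 108.8 and 144.8 CPM in non-LRC cells from the same mice in this order, which is kept for the other members. Every LLRC library was below every non-LRC library, which held for no other member and for 1.91% of all genes. The means were 20.2 ± 5.64 CPM (SD, n = 4) and 81.6 ± 54.5 CPM (SD, n = 4). The log2 fold change was -2.01 (standard error, SE, 0.53, 95% interval -3.21 to -0.81, edgeR quasi-likelihood adjusted p = 0.378), and the exact permutation test gave p = 0.029, the smallest it allows, without use of the pairing by mouse. In DESeq2 the adjusted p was 0.0171, and over the 22 alternatives of the fit it ranged from 0.0171 to 0.9999. The log2 fold change of Glul was -1.85 without the non-LRC library of JV624.

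Cyp2e1, the cytochrome P450 that oxidizes ethanol and paracetamol, lies at chr7:140763739-140774987 of GRCm38 on the + strand. Its levels were 17.1, 14.8, 38.7 and 24.3 CPM in the LLRC libraries and 31.7, 59.9, 320.9 and 197.5 CPM in the non-LRC libraries, in the same order of mice. The LLRC library was lower in each of the 4 mice, and the groups overlapped because the LLRC library of JV624 was above the non-LRC library of JV602. Means were 23.7 ± 10.8 CPM for LLRCs against 152.5 ± 133.6 CPM for non-LRC cells (SD, n = 4 each), and the log2 fold change was -2.69 (SE 0.72, edgeR quasi-likelihood adjusted p = 0.384 and DESeq2 adjusted p = 0.0106, with 0.0106 to 0.9999 over the alternatives, exact permutation p = 0.0571). Without the non-LRC library of JV624 it was -2.03. Cyp2e1 and Glul had the smallest edgeR p-values of the 9 members.

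Oat, ornithine aminotransferase, links ornithine to glutamate and proline in the mitochondrion and is the pericentral member nearest to the urea cycle (chr7:132557478-132576398, - strand). It was read at 12.7, 27.2, 42.8 and 56.6 CPM in LLRCs against 46.7, 64.9, 394.5 and 232 CPM in non-LRC cells. The LLRC library was lower in all 4 mice, and only the LLRC library of JV6314 reached into the range of the non-LRC libraries. On the log2 scale the fold change was -2.41 (SE 0.74, edgeR quasi-likelihood adjusted p = 0.567, exact permutation p = 0.0571), and -1.72 when the non-LRC library of JV624 was left out.

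Cyp1a2, which metabolizes caffeine and aromatic amines and is induced through the aryl hydrocarbon receptor (chr9:57676937-57683703, - strand), was the member with the fewest reads. Its counts were 15, 3, 21 and 31 in LLRCs against 4, 10, 532 and 64 in non-LRC cells. One library therefore held most of its reads, at 84.0 CPM, while the other 3 non-LRC libraries stood between 0.501 and 12.6 CPM. In JV602 the order was the opposite of the other mice, with 1.45 CPM in LLRCs against 0.501 CPM in non-LRC cells, both within a few times the level of 3 counts. The log2 fold change of -3.57 was the largest of the members and the least certain (SE 1.42, edgeR quasi-likelihood adjusted p = 0.893, exact permutation p = 0.314), and it was -1.28 without the non-LRC library of JV624.

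Among the periportal members, Cps1 and Ass1 belong to the urea cycle. Cps1, carbamoyl phosphate synthetase, makes the first intermediate from ammonia in the mitochondrion (chr1:67123026-67231259, + strand). Cps1 was read at 30.9, 34.6, 54.6 and 43.2 CPM in LLRCs against 41.0, 41.5, 376.6 and 112.5 CPM in non-LRC cells. In JV602 and JV621 the libraries of a mouse differed by -0.41 and -0.26 on the log2 scale, and in JV624 and JV6314 by -2.79 and -1.38. Cps1 had a log2 fold change of -1.81 (SE 0.70, edgeR quasi-likelihood adjusted p = 0.850, exact permutation p = 0.229), and -0.68 without the non-LRC library of JV624.

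Ass1, argininosuccinate synthetase, condenses citrulline with aspartate (chr2:31470207-31520672, + strand). Its reads cannot be assigned to the gene with certainty, because the processed pseudogene Gm5424 (chr10:62071123-62072362) matches 1233 of the 1239 coding bases of Ass1 (99.5%), with 6 substitutions and a longest identical run of 398 bases. Coding bases 340 to 429 of Ass1 (GRCm38, GENCODE M21) and the matching bases of Gm5424 are shown to let the likeness be seen, with the 2 bases that differ in capitals and the rest in lower case.
Ass1: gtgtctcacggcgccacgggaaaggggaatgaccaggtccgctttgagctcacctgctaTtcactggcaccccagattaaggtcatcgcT
Gm5424: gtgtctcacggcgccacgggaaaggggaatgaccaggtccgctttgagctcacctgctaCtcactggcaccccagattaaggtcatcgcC
Ass1 had 93, 77, 115 and 57 counts in LLRCs and 83, 33, 1122 and 151 counts in non-LRC cells, and Gm5424 had 128, 131, 135 and 99 counts and 125, 61, 1694 and 206 counts. Gm5424 took between 54.0% (95% Clopper-Pearson interval 47.6 to 60.3, counting error only) and 64.9% (54.4 to 74.5) of the summed reads, so the pair kept about the same proportion in every library. Together they stood at 25.0 ± 8.38 CPM in LLRCs, against 140 ± 204 CPM in non-LRC cells (SD, n = 4 each, exact permutation p = 0.257). For Ass1 alone the log2 fold change was -2.44 (SE 0.98, edgeR quasi-likelihood adjusted p = 0.893), and it was -0.61 without the non-LRC library of JV624.

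The other periportal members belong to glucose and amino acid metabolism. Pck1, the cytosolic phosphoenolpyruvate carboxykinase of gluconeogenesis (chr2:173153048-173159273, + strand), was read at 42.6, 40.3, 20.6 and 23.9 CPM in LLRCs against 59.4, 31.1, 264 and 204 CPM in non-LRC cells. JV621 had the higher level in LLRCs, and the other mice in non-LRC cells. The log2 fold change was -2.13 (SE 0.65, edgeR quasi-likelihood adjusted p = 0.567, exact permutation p = 0.0857), and -1.63 when the non-LRC library of JV624 was left out.

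Hal, histidine ammonia-lyase, starts the breakdown of histidine (chr10:93488768-93519304, + strand). It was read at 9.50, 8.16, 26.8 and 16.7 CPM in LLRCs against 11.8, 10.9, 97.6 and 57.4 CPM in non-LRC cells. The LLRC library was lower in all 4 mice, with log2 differences of -0.31 and -0.42 in JV602 and JV621 and of -1.86 and -1.78 in JV624 and JV6314. For Hal the log2 fold change was -1.54 (SE 0.76, unadjusted p = 0.073 and edgeR quasi-likelihood adjusted p = 0.9999), and -0.81 when the non-LRC library of JV624 was left out.

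Sds, serine dehydratase, turns serine into pyruvate (chr5:120476526-120483932, + strand). Its levels were 15.7, 8.52, 3.24 and 9.66 CPM in LLRCs against 15.3, 9.40, 20.2 and 27.2 CPM in non-LRC cells. The groups overlapped, and JV602 and JV621 had nearly equal levels in their 2 libraries. Sds was also the member least raised in the non-LRC library of JV624, at 1.17 times the mean of the other non-LRC libraries. For Sds the log2 fold change was -0.95 (SE 0.55, unadjusted p = 0.115 and edgeR quasi-likelihood adjusted p = 0.9999), the smallest of the members. Without the non-LRC library of JV624 it was -0.90, and Ass1, Cps1 and Hal then had smaller differences.

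Read mouse by mouse, the members divided the animals. In JV624 and in JV6314 all 9 members were lower in the LLRC library, by log2 differences from -4.73 (Cyp1a2) to -1.86 (Hal) in JV624 and from -3.09 (Pck1) to -1.38 (Cps1) in JV6314. In JV602 and in JV621 the LLRC library was lower for 7 members each, with differences from -1.88 (Oat) to 1.42 (Cyp1a2) and from -2.41 (Cyp1a2) to 0.39 (Ass1). With the mouse as a term of the edgeR fit, 3 of 9 members (Glul, Cyp2e1 and Oat) had an unadjusted p below 0.05, against 2.46% of all genes lower in LLRCs, and the periportal median log2 fold change moved from -1.81 to -1.19.

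**Figure D2:**
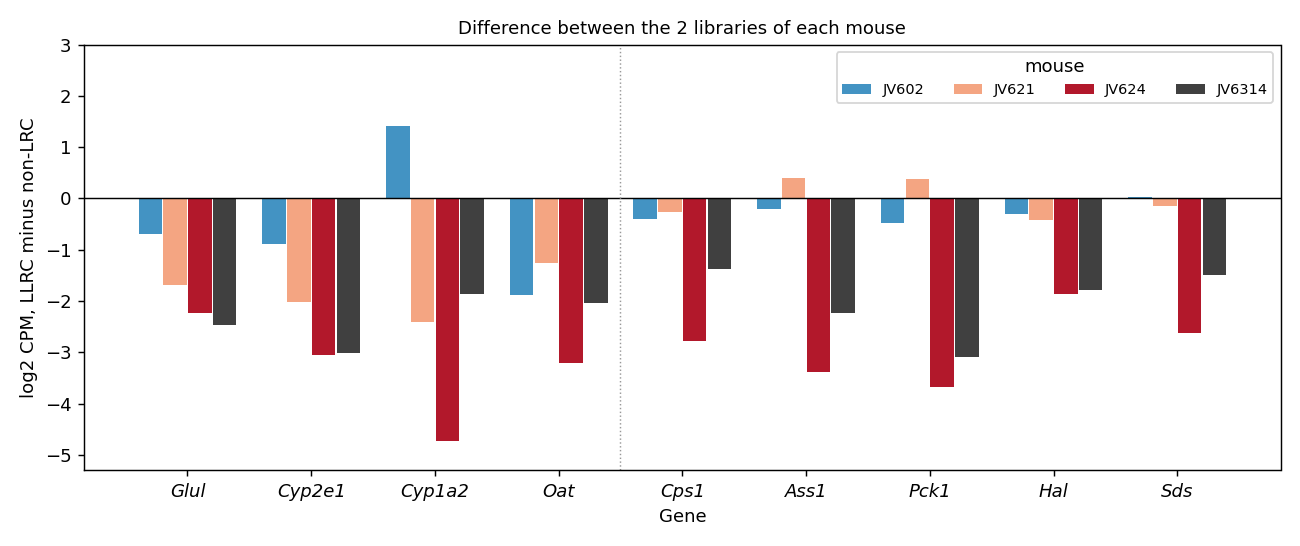
Difference of log2 CPM between the LLRC and the non-LRC library of each mouse, with a bar for each of the 4 mice at each of the 9 members. Bars below 0 mean a lower level in LLRCs, which holds for all members in JV624 and JV6314, while the periportal bars of JV602 and JV621 lie between -0.48 and 0.39.

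The non-LRC library of JV624 was the highest of the 8 libraries for 7 of 9 members, against 17.4% of all genes. Its levels were 1.17 (Sds) to 16.6 (Cyp1a2) times the mean of the other 3 non-LRC libraries, with a median of 3.44. Over 2 times were 7 of 9 members, against 2258 of the 13558 genes with a finite ratio. The 19 hepatocyte markers had a median of 2.90 there, from 0.952 to 9.39, the 20 cholangiocyte markers 0.814, the 18 endothelial markers tested 0.822, the 7 stellate and fibroblast markers tested 2.48 (4 over 2 times) and all genes 1.01. The members' summed level was 157 to 229.7 CPM in the LLRC libraries, 246 and 270.4 CPM in the non-LRC libraries of JV602 and JV621, and 1844 and 1018 CPM in those of JV624 and JV6314. Without the non-LRC library of JV624 the pericentral median log2 fold change was -1.78 and the periportal one -0.81, and 4 members (Glul, Cyp2e1, Oat and Pck1) had an unadjusted p below 0.05, against 3.14% of all genes lower in LLRCs. Without both libraries of JV624 these were 2 members (Glul and Cyp2e1), against 2.19% of all genes.

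**Figure D3:**
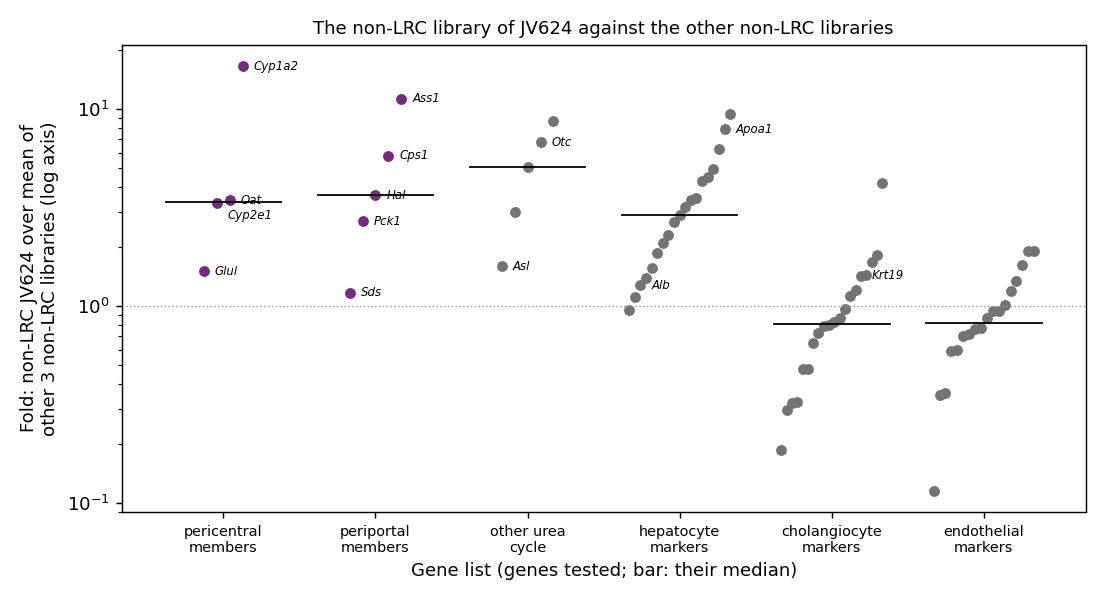
Level in the non-LRC library of JV624 over the mean of the other 3 non-LRC libraries, on a log axis, for the members and for other genes by list, with a bar at the median of the genes shown and a dotted line at 1. Members lie between 1.17 and 16.6, the hepatocyte markers between 0.952 and 9.39, and the medians of cholangiocyte and endothelial markers below 1.

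Markers of the cells that could accompany the sorted cells were read beside these values. The hepatocyte markers summed to 5797 to 6599 CPM in LLRCs, with all 19 detected in every library, and to 5626, 3811, 10540 and 8115 CPM in non-LRC cells. Alb differed by 0.01 on the log2 scale (SE 0.27), while Apoa1, Apoa2 and Apoc3, the markers with the lowest fold changes of the list, stood at -2.66, -2.79 and -2.74, and Apob and Ahsg, those with the highest, at 0.74 and 0.46. Leaving out the non-LRC library of JV624 moved Apoa1, Apoa2 and Apoc3 to -1.21, -1.88 and -1.87, and Apob and Ahsg to 1.13 and 0.49. Of the hepatocyte markers, 5 of 19 had an unadjusted p below 0.05 and a lower level in LLRCs, 14 of 19 had a negative value, and the list median was -1.09. These were 1, 13 and -0.46 without the non-LRC library of JV624. The non-LRC library of JV624 was the highest of all libraries for 15 of the 19, as it was for 7 of 9 members. The part of hepatocyte RNA in the members' values was not tested.

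The endothelial markers summed to 53.6 to 109.5 CPM in LLRCs against 347 to 1785 CPM in non-LRC cells. Each of the 18 tested was lower in LLRCs at an unadjusted edgeR p below 0.05, against 3.56% of all genes. Some of them, such as Stab1 (7, 3, 9 and 7 counts in LLRCs), passed the filter on low counts through their non-LRC libraries, which set their direction. The paper had already named Pecam1, Cdh5, Tek, Flt1, Eng, Esam and Cldn5 as downregulated in LLRCs of these libraries. The highest endothelial sum was in the non-LRC library of JV621, where the members summed to 270.4 CPM, and not in that of JV624. The cholangiocyte markers had a median log2 fold change of 0.24. The acinar markers summed to 1544 CPM in the non-LRC library of JV6314 and to 2.48 to 23.5 CPM elsewhere. Of the stellate and fibroblast markers 7 of 12 were tested, with a median of -1.91 (3 at an unadjusted p below 0.05), and of the Kupffer and other hematopoietic markers 4 of 14, with a median of -0.15. These held opposite values, with Mrc1, a receptor of macrophages and sinusoidal endothelium, at -5.28 (4.21 ± 0.926 CPM in LLRCs, 164 ± 121 CPM in non-LRC cells) and Ptprc, which encodes CD45, at 3.27 (3.28 ± 2.62 and 0.345 ± 0.691 CPM). The part of all these cell types in the members' values was not tested.

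To set the zones beside each other, levels were scaled by exon length to RPKM (CPM divided by the kilobases of exon) and summed over the members of each zone. The log2 of pericentral over periportal was -0.75, -0.32, 0.59 and 0.78 in LLRCs, with the mice in the same order, and 0.12, 1.37, 0.66 and 1.02 in non-LRC cells. The balance was lower in LLRCs in 4 of 4 mice, with differences of -0.87, -1.69, -0.06 and -0.23, and the mean difference was -0.71 ± 0.74 (SD, n = 4). This difference is about as large as its spread over mice, and in JV624 it was close to 0. Without Glul the difference was -0.77 ± 0.71, and with the median of log2 levels in place of sums it was -0.74 ± 1.03 and lower in 3 of 4 mice. For the single pair Cyp2e1 over Cps1 it was -1.04 ± 0.77, lower in all 4. The balance rests on ratios within a library and does not depend on the scaling between libraries.

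**Figure D4:**
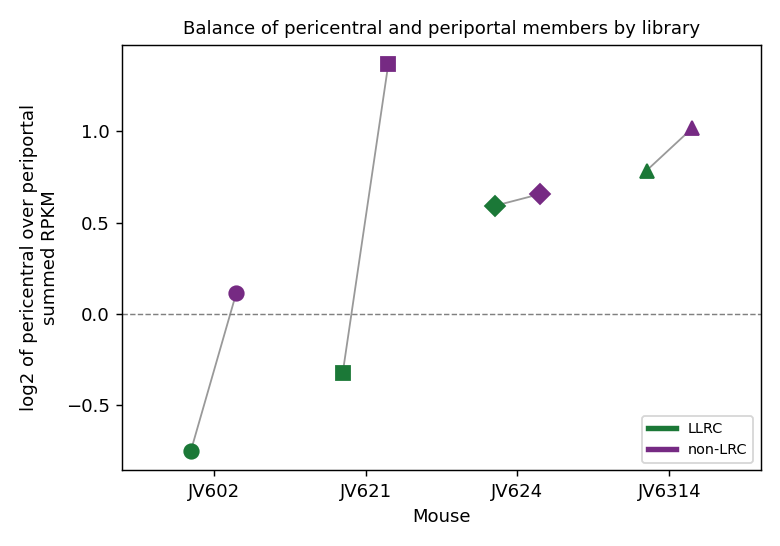
Log2 of the summed RPKM of the 4 pericentral members over that of the 5 periportal members, with the LLRC and the non-LRC library of each mouse joined by a line and the dashed line at equal sums. The LLRC library lies below its non-LRC library in all 4 mice, by the least in JV624, where the difference is -0.06.

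The order of the members was much alike in both groups. In LLRCs the median RPKM ran from 14.8 for Oat through 9.59 for Cyp2e1, 9.36 for Pck1, 7.01 for Cps1, 6.19 for Glul, 5.36 for Sds, 3.75 for Ass1 and 2.36 for Hal to 1.13 for Cyp1a2. In non-LRC cells it ran from 62.9 for Oat, 59.6 for Cyp2e1 and 38.4 for Pck1 to 3.66 for Cyp1a2, with Glul (22.9) above Cps1 (13.9). The ranges of all neighbours in either order overlapped, so no step between neighbours was larger than the spread of 4 libraries.

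Other genes of the same zones were read from lists. Of 23 further pericentral genes 10 passed the filter on low counts, and 3 of these had an unadjusted p below 0.05 and a lower level in LLRCs and 1 a higher level, 8 of the 10 with a negative value and a median log2 fold change of -2.22. Without the non-LRC library of JV624, an alternative chosen after seeing the data for this and the next lists, 8 of the 10 were still negative and the median was -1.05. Cyp7a1, the rate-limiting enzyme of bile acid synthesis, stood at 0.681 ± 0.724 CPM in LLRCs against 13.9 ± 9.94 CPM in non-LRC cells, with 0 counts in the non-LRC library of JV621. Znrf3, a membrane ubiquitin ligase that dampens Wnt signalling, was the one with a higher level, at 473 ± 201 and 206 ± 64.7 CPM (log2 fold change 1.20, SE 0.39, edgeR quasi-likelihood adjusted p = 0.682). Axin2 and Lgr5, which are used as readouts of Wnt signalling, did not pass the filter, with means of 0.120 CPM or less in either group. So few reads cannot show the level of Wnt signalling in either group.

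Of 16 further periportal genes 15 were tested, 13 with a negative log2 fold change and 4 at an unadjusted p below 0.05, with a median of -1.22. When the non-LRC library of JV624 was left out, 9 of 15 were negative, none had an unadjusted p below 0.05 with a lower level in LLRCs, and the median was -0.42. Agxt, the peroxisomal enzyme that detoxifies glyoxylate, was read at 5.39 ± 2.17 CPM in LLRCs against 37.6 ± 44.1 CPM in non-LRC cells, with 102 CPM in the non-LRC library of JV624 (log2 fold change -2.80, and -1.59 without that library). Igf1 and Pigr, the growth factor and the carrier of immunoglobulin A, had the highest fold changes of the list, at 0.20 and 0.26. Pigr is also made by bile duct cells.

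Of 6 further urea cycle genes 5 were tested and all 5 had a negative log2 fold change, with a median of -1.13. Leaving out the non-LRC library of JV624 turned 3 of the 5 (Nags, Slc25a15 and Slc25a13) and moved the median to 0.10. Otc, which makes citrulline, stood at 21.0, 47.1, 122.8 and 32.9 CPM in LLRCs against 35.9, 55.3, 557.5 and 156 CPM in non-LRC cells (log2 fold change -1.85, or -0.57 without the non-LRC library of JV624, edgeR quasi-likelihood adjusted p = 0.9999). Its pattern over libraries was like that of Cps1, with the LLRC library of JV624 highest among LLRCs for both. Asl, which splits argininosuccinate, had an unadjusted p of 0.016 and a log2 fold change of -1.13 (-0.94 without that library), with 26.3 to 40.5 CPM in LLRCs against 37.6 to 99.1 CPM in non-LRC cells. Slc25a15 and Slc25a13, the mitochondrial carriers of ornithine and of aspartate, had values of -0.90 and -0.39, which were 0.10 and 0.19 without that library.

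Among 11 genes of ammonia, glutamine and transamination, 8 were tested and none had an unadjusted p below 0.05, with a median log2 fold change of -0.85 that was 0.14 without the non-LRC library of JV624. Glud1, glutamate dehydrogenase, stood at 193 ± 17.1 and 187 ± 50.9 CPM, a log2 fold change of 0.04 (SE 0.26). Gls2, the hepatic glutaminase, had -1.34, and 1.34 without that library, which held 19.4 CPM of it. Of 8 ornithine and proline genes, all were tested and none had an unadjusted p below 0.05, with a median of -0.47, from -1.85 for Otc and -1.77 for Agmat to 1.55 for Pycr1, and the median was 0.01 without that library.

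Of 10 genes of histidine and serine breakdown 9 were tested, 8 with a negative log2 fold change and a median of -1.03. When that of JV624 was left out of the non-LRC libraries, 6 of the 9 were negative and the median was -0.41. Uroc1, the step after Hal, was the one with an unadjusted p below 0.05, at 1.45, 2.96, 3.82 and 4.77 CPM in LLRCs against 4.38, 3.97, 36.8 and 23.7 CPM in non-LRC cells (log2 fold change -2.40, or -1.71 without that library, edgeR quasi-likelihood adjusted p = 0.722). Of 10 gluconeogenesis genes 3 had an unadjusted p below 0.05 (Pcx, Tat and Fbp1, all lower in LLRCs), with a median of -1.11 that was -0.51 without that library, and Ppargc1a and Slc37a4 had the highest values, at 0.78 and 0.57. Pcx, pyruvate carboxylase, stood at 1.43 ± 0.885 CPM in LLRCs against 9.77 ± 10.6 CPM in non-LRC cells, with 25.4 CPM in the non-LRC library of JV624. Its log2 fold change was -2.758, and -1.665 without that library.

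A list for the central vein endothelium held 3 secreted signals to pericentral hepatocytes (Wnt2, Wnt9b and Rspo3) and 3 genes of the endothelial surface (Thbd, Kit and Cdh13), each of them lower in LLRCs at an unadjusted p below 0.05, with -4.26 as the median log2 fold change and -4.28 without the non-LRC library of JV624. Rspo3, which amplifies Wnt signalling, was at 0 to 19.4 CPM in LLRCs against 77.0, 492, 186 and 261 CPM in the 4 non-LRC libraries. Cdh13, a cadherin of the endothelium, was at 0.441 to 9.82 CPM and at 66.0 to 257.5 CPM. Of all genes, 3.56% were lower in LLRCs at an unadjusted edgeR p below 0.05. The direction of Wnt2, Rspo3 and Cdh13 was known beforehand, since the paper reports them as downregulated in LLRCs. Wnt9b held 0, 5, 0 and 0 counts in LLRCs, so its non-LRC libraries met the low-count filter and fixed its direction. None of the 6 passed the adjusted threshold here (smallest 0.130, from edgeR's quasi-likelihood test). The paper's own edgeR comparison called Wnt2, Rspo3 and Cdh13 at an adjusted p below 0.05. Of the 6, 1 (Wnt9b) was highest in the non-LRC library of JV624, Wnt2 and Cdh13 in that of JV6314, and Rspo3, Kit and Thbd in that of JV621. The endothelial markers given above were lower in LLRCs with them, and their part was not tested.

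The genes whose log2 CPM, centred on its mean, lay nearest to a member over the 8 libraries were found for Glul, Cyp2e1 and Cps1. For Glul they were Vim, Cxcl12, Hsd11b1, Klf2 and Nudt7, at root mean square distances of 0.292 to 0.445 on the log2 scale, against a median of 1.43 over all genes. For Cyp2e1 they were Cxcl12, Pid1, Serpina3c, Hpd and Scd1, at 0.302 to 0.371 against a median of 1.76. For Cps1 they were 5 major urinary protein genes, Mup13, Mup15, Mup7, Mup1 and Mup9, at 0.181 to 0.196 against a median of 1.41. The major urinary protein genes are near-identical copies whose reads cannot be assigned with certainty, so these are not 5 separate neighbours. Cxcl12 stood near both Glul and Cyp2e1.

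Promoter sequence was found for 7 of the 9 members in the RefSeq table (GRCm38.p6), for Glul, Cyp2e1, Cyp1a2, Oat, Ass1, Pck1 and Hal. In windows from 250 bases before to 50 after the start, CTTTGA, the core of the site bound by the TCF/LEF partners of Wnt signalling, was present on either strand in Cyp2e1, Cyp1a2 and Hal, and in 16.2% of 27025 promoters. The same 3 genes held TATAAA, the letters of a TATA box, on either strand, as 14.2% of promoters do. In Hal TATAAA lies on the strand opposite to the gene and reads TTTATA below. The CTTTGA of Cyp1a2 is likewise on the opposite strand and reads TCAAAG. The 250 bases before the start are shown for these 3, 5′ to 3′ on the strand of the gene, with both motifs in capitals as they read on that strand. In order they lie at chr7:140763569-140763818 (+), chr9:57683656-57683905 (-) and chr10:93488518-93488767 (+).
Cyp2e1: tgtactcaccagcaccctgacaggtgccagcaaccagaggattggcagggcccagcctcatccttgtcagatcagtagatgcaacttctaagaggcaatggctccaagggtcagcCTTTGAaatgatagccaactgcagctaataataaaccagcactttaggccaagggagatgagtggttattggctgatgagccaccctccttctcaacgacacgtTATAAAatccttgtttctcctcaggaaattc
Cyp1a2: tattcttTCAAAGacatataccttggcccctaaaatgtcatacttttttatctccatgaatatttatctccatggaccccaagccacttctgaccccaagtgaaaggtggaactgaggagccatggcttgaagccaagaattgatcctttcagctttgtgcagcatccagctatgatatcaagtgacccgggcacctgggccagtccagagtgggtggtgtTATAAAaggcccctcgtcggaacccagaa
Hal: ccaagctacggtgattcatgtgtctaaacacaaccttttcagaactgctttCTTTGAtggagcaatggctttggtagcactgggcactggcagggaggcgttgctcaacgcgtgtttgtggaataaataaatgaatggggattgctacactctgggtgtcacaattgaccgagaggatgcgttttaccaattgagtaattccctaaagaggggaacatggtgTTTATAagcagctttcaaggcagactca
The CTTTGA letters start 135, 243 and 199 bases before the start of Cyp2e1, Cyp1a2 and Hal, and TATAAA 31, 29 and 28 bases before it. The 3 genes thus include 2 pericentral members and 1 periportal member, and Glul, the member whose groups did not overlap, holds neither motif in this window. CCAAT, the CCAAT box, was present in Glul, Cyp2e1, Oat and Hal (37.9% of promoters) and GTTAAT, a motif of HNF1, in Pck1 (7.20%), while CAAAGTCCA (0.477%) and TGACGTCA (1.88%) were in none of the 7. Presence of these letters is a description and was not tested against the levels.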

How the data were processed

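RNA was sequenced from 4 LLRC and 4 non-LRC libraries, 1 of each from 4 mice. The authors had the reads mapped at a service facility, counted them on exons of GRCm38.p4 Ensembl genes with HTSeq in union mode and without strand, and deposited raw counts per gene. Antisense reads on the exons of a gene thus count for it, and reads over exons of overlapping genes count for neither. The aligner is not given in the sources used here. Their deposited table of log2 fold changes and p-values holds their own edgeR comparison and was not used. Columns were assigned to libraries through the sample number in the labels.

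From the counts, genes were filtered with filterByExpr, scaled by TMM and compared by edgeR's quasi-likelihood test (version 4.0.16 under R 4.3.3) with group as the term and Benjamini-Hochberg adjustment over 13605 genes at 0.05. Standard errors of log2 fold changes were derived from the test statistic. Single levels were compared by a two-sided exact permutation test over 70 splits, whose smallest p is 0.029 and which does not use the pairing by mouse. Log2 CPM within mice used a prior count of 0.5. Symbols, coordinates and exon lengths came from GENCODE M21 (46005 of 46603 rows had a symbol). The code was tested on simulated data. DESeq2 1.42.0, limma 3.58.1, other filters and scalings, a block for the mouse, and leaving out single libraries and mice were the alternatives.

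Both libraries of a mouse come from the same animal by their titles, so the mouse pairs them. Their deviations from the group means correlated over genes with r of 0.101 (JV602), 0.0575 (JV621), 0.00558 (JV624) and 0.152 (JV6314). Nothing states that the mice were separate litters. The p-values of the main fit and of the permutation test measure the spread between libraries of a group, and leave the pairing by mouse out.

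Of the genes first listed, 3 are not reported here, and sums, medians and counts are over the rest. The members and lists were chosen with earlier results of these data known. By rule, all members, any near-identical copy and the 5 genes nearest to Glul, Cyp2e1 and Cps1 were named, and the 2 highest and 2 lowest fold changes of a list could be, of which the text names some. Genes named beyond this rule (such as Alb, Epcam, Krt19, Axin2, Lgr5, Apoa1, Asl and Fbp1) were chosen after their values were seen.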

Additional observations from a re-analysis of the deposited data

Results flagged for a closer look

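Within the groups of 4 libraries, 3 of 24 had 1 library farther from the rest than Dixon's 95% limit allows, where chance gives about 1 in 20. All 3 were the non-LRC library of JV624, with Cyp1a2 at 84.0 CPM, Ass1 at 177 CPM and its copy Gm5424 at 267 CPM. Reads of Ass1 and Gm5424 cannot be assigned with certainty, so the 2 rows count as 1 result.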

How the results depend on the processing

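The log2 fold change of every member was negative in all 22 alternatives of the fit. Each alternative kept the non-LRC library of JV624 or that of JV6314, where the members' sums were highest. The sign without both of these libraries was not tested. Genes past the adjusted threshold of 0.05, 0 in edgeR's quasi-likelihood test, numbered 11 with no expression filter, 221 with DESeq2, 127 with edgeR's exact test without a filter, 73 with the newer quasi-likelihood dispersion, and 0 to 6 with 1 library or mouse left out (6 without the non-LRC library of JV602). DESeq2 called 2 members (Glul and Cyp2e1) and the other 21 alternatives called 0. With the mouse as a replicate block, 0 genes and 0 members were called, the medians were -2.07 (pericentral) and -1.19 (periportal), and no adjusted call changed. Without the non-LRC library of JV624 the medians were -1.78 and -0.81. Per hepatocyte marker count, the log2 ratios of means of the 9 members lay between -2.88 and -0.82, with exact permutation p-values of 0.029 for Glul and Pck1 (0.0857 for Pck1 in CPM), 0.0571 for Cyp2e1, Oat, Cps1 and Sds, and 0.171 to 0.229 for Ass1, Hal and Cyp1a2. Alb, Ambp, Ahsg and Rbp4 had the highest levels among these markers, with log2 fold changes of 0.01, 0.24, 0.46 and 0.23. In contrast, 14 of the 19 markers had a negative value. A lower level per marker count therefore does not separate the members from hepatocyte RNA, and this was not tested. Depth limits Cyp1a2, with 3 to 31 counts in LLRCs, and the low genes of the lists. The causes of these differences were not tested.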
